A study of Mus musculus with 6 samples.

Results

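The proteasome genes described here are the 3 catalytic subunits of the immunoproteasome (Psmb8, Psmb9 and Psmb10), the 3 constitutive subunits whose places they take (Psmb5, Psmb6 and Psmb7) and the 3 subunits of the PA28 activator (Psme1, Psme2 and Psme3). They are 9 genes chosen by symbol, with their values in these samples already known, from a series in which 18193 genes were tested. Their RNA was measured in Ba/F3 cells, an interleukin-3-dependent mouse pro-B cell line that had been transduced with the SPAG9-JAK2 fusion under a doxycycline-dependent promoter (Retro-X Tet-On Advanced). Induced cells (3 arrays) were cultured with doxycycline at 500 ng/ml and express the fusion, in which the JAK2 tyrosine kinase is joined to SPAG9. Uninduced cells (3 arrays) are the same transduced cells without doxycycline, called mock in the labels. RNA of both groups was extracted after 48 hours. The sources do not say whether the line is 1 clone or a pool, and no group had doxycycline without the fusion construct, so the drug and the fusion cannot be told apart. In such bulk RNA, fewer cells of a type and less RNA per cell cannot be told apart either.

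The proteasome is the barrel-shaped protease that degrades ubiquitin-tagged proteins. Its cutting sites lie on 3 beta subunits, and interferon signalling through JAK and STAT proteins is known to raise the genes of 3 alternative subunits that replace them in newly built particles, which then release more of the peptides that MHC class I molecules present. PA28 is a ring that caps the barrel and opens it: Psme1 and Psme2 form the interferon-inducible ring of the cytoplasm, and Psme3 forms a separate nuclear ring that interferon is not known to raise in the same way. Ba/F3 cells are a common test bed for JAK2 kinases because an active kinase can replace interleukin-3 in them.

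The promoters of the interferon-inducible members are shown because these are the genes the results turn on. RefSeq windows of 300 bases around the start (build GRCm38.p6) were matched for 8 of the 9 members, all but Psmb7. They were searched on both strands for the core of the interferon-stimulated response element (GAAA, any 2 bases, GAAA), the gamma-activated site that STAT dimers bind (TTCNNNGAA) and the core of the antioxidant response element (TGACNNNGC). These patterns do not overlap in any window printed here, and capitals mark each match.
Psmb10 promoter, chr8:105938343-105938642, minus strand: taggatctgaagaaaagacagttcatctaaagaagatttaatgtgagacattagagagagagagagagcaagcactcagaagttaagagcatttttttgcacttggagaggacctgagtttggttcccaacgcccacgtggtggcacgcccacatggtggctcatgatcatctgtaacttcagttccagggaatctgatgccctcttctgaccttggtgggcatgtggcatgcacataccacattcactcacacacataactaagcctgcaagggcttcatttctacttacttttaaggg
Psmb8 promoter, chr17:34197945-34198244, plus strand: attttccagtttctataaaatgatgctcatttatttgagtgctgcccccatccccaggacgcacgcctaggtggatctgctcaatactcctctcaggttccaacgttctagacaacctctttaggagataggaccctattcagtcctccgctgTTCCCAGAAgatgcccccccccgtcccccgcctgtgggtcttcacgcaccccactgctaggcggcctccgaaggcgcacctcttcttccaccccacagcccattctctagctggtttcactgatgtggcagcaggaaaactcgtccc
Psmb9 promoter, chr17:34187281-34187580, minus strand: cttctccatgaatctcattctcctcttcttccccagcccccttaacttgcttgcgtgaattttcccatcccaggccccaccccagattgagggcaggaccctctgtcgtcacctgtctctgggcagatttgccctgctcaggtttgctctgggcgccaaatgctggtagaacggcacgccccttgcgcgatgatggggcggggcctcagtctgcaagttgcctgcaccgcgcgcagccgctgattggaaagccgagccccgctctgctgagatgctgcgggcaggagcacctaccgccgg
Psme1 promoter, chr14:55578244-55578543, plus strand: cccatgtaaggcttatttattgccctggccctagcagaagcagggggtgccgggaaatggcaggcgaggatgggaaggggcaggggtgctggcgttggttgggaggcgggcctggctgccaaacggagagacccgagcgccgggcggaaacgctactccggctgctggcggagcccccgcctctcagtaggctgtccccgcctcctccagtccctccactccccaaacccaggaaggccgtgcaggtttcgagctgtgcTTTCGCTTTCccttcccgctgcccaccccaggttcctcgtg
Psme2 promoter, chr14:55591052-55591351, minus strand: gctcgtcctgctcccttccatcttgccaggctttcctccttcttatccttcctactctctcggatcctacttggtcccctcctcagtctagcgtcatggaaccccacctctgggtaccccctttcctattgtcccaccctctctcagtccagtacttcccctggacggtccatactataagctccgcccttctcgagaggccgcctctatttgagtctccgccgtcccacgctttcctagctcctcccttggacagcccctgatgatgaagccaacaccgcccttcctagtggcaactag
The Psme1 window held the only response element core among the members, on the minus strand at 9 to 18 bases after the start (TTTCGCTTTC as read on the plus strand), and 3.44% of all 32851 RefSeq windows hold this pattern. The Psmb8 window held the only gamma-activated pattern, TTCCCAGAA, whose first base lies 97 bases before the start, against 8.3% of all windows. Psmb10, Psmb9 and both annotated starts of Psme2 had no match to any of the 3 patterns in these windows. Of the constitutive genes, Psmb5 (TGACGTCGC) and Psmb6 (TGACGGAGC) each held an antioxidant core, a pattern found in 12.4% of all windows, and Psme3 held none of the 3. Psmb9 and Tap1, a peptide transporter gene, are read in opposite directions on chromosome 17, and 275 bases of their windows are shared. A match is a description of letters and not of binding.

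Each array (Affymetrix mouse 3′ expression design) held 45101 probe sets, and its median signal was 46.5 to 55.2 on induced and 46.3 to 63.8 on uninduced arrays. Levels below are log2(signal + 16), on which a fold change understates the change of a dim gene. Uninduced replicate 1 lay farthest from its own group over all genes (root mean square distance of 0.70 to the mean of the other two, against 0.47 to 0.58 for the induced arrays and 0.50 and 0.53 for uninduced replicates 3 and 2). The mouse probe sets of Jak2 did not show an increase: Jak2 stood at 10.50, 10.78 and 10.66 in induced cells, against 10.22, 11.75 and 11.60 in uninduced cells, and Spag9 at 11.13, 10.72 and 10.93, against 11.13, 12.20 and 12.19. The arrays therefore gave no direct view of the fusion transcript, whose species of origin the labels do not state. Of 15 pro-B and cytokine receptor markers 5 had mean levels above 6.12, the 90th percentile over 17 genes typical of liver or brain, which served as the background. These were Ptprc, Csf2rb, Il3ra, Cd79b and Igll1, whereas Pax5, Ebf1, Cd79a, Vpreb1, Rag1, Rag2, Dntt, Il7r, Cd24a and Kit lay at or below it. The same level was passed by 6 of 9 myeloid and 3 of 7 T cell markers. Mbp, 1 of the 17 background genes, had a mean level of 9.91 and so raised this cut. Pax5, at 6.06, lay just below the cut, so its place depends on the choice of background genes. The mean over the myeloid markers ranged from 5.77 to 6.73 on induced arrays, against 6.46 to 7.89 on uninduced arrays, so these list means overlapped. The median log2 fold change of the 9 was -1.23, and 0 passed the limma threshold. Csf1r, Adgre1, S100a8 and S100a9 were lower at an unadjusted p under 0.05 in limma, as were 10.3% of all genes. In these 4 every induced array lay below every uninduced array, as in 13.4% of all genes. Lyz2 (-1.37), Itgam (-1.12) and Cd14 (-0.59) were lower with overlap, whereas Elane (0.46) and Mpo (0.05) had positive log2 fold changes. The mean over the T cell markers ranged from 5.83 to 6.16 on induced arrays, against 5.71 to 6.24 on uninduced arrays. The part of these markers in the values below was not tested.

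Platform annotation tied 12 probe sets to the members. Psmb8 had 2, Psme3 had 3 and each of the others had 1, but the single probe set for Psme2 is annotated to the related gene Psme2b as well, so its signal cannot be assigned to either gene. On 11 of the 12 the induced mean was above the uninduced mean. On 8 of them every induced array lay above every uninduced array, which held for 9.35% of all 45037 probe sets. Taken by gene, with the probe set of highest mean, 6 of the 8 members with a probe set of their own had such separation, against 10.7% of all genes (13.4% of all genes were separated the other way), and all 8 had a positive log2 fold change, against 44.1% of all genes. The median log2 fold change was 0.65 over these 8 members and -0.06 over all genes. In limma 1 of the 8, Psmb10, passed an adjusted p of 0.05, as did 0.187% of all genes, where 0.115% were higher and 0.0715% lower. Since the members were chosen on this contrast, these shares describe them and support nothing.

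**Figure D1:**
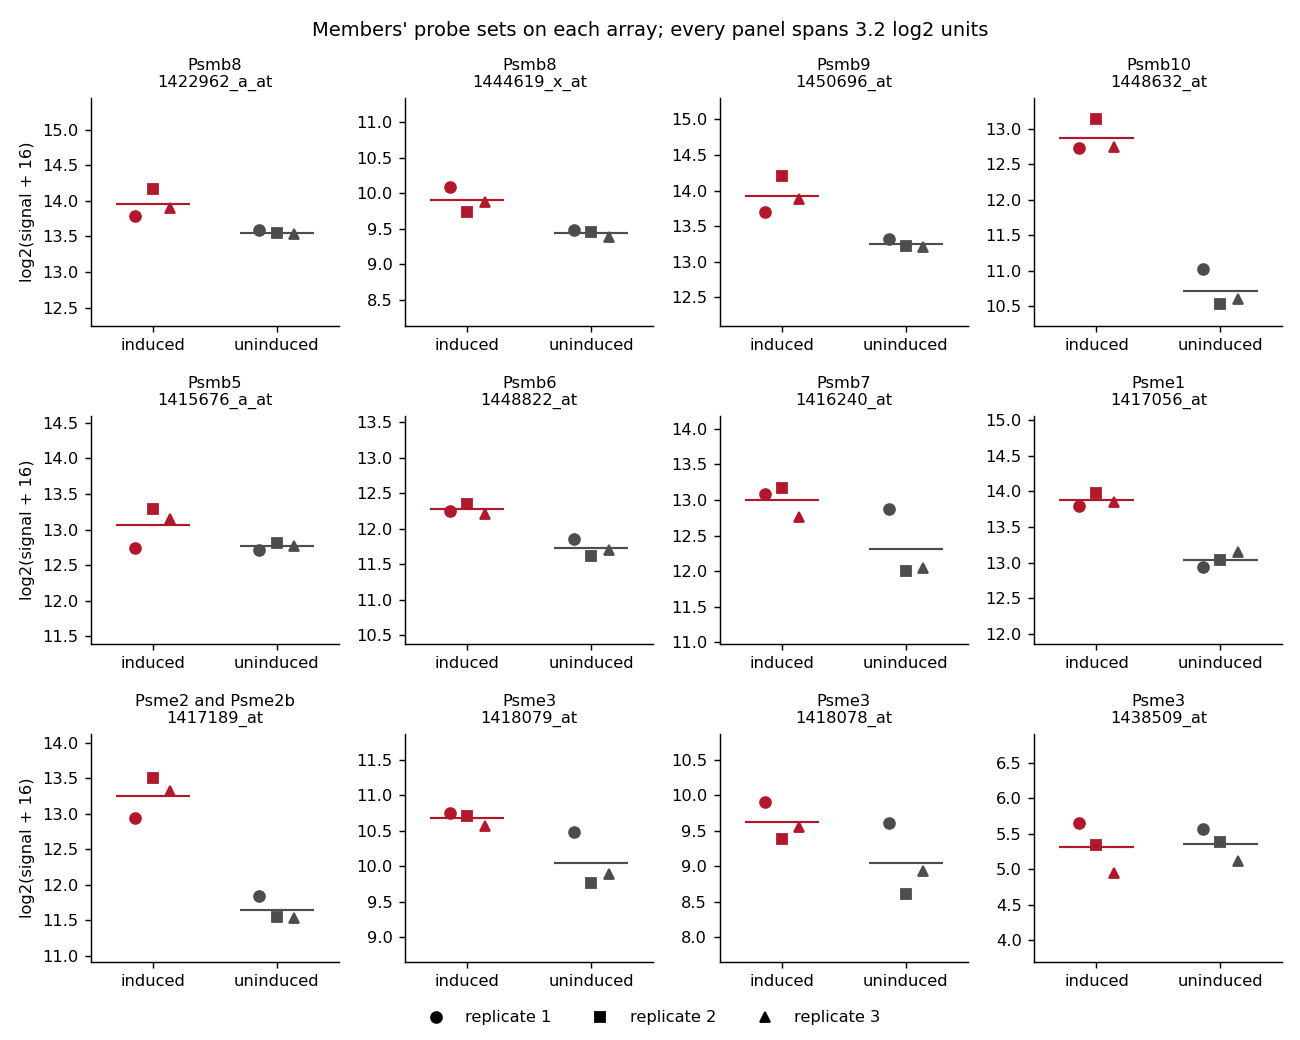
Level of each of the 12 probe sets on each array, as log2(signal + 16) on the y axis, with induced arrays (red) left of uninduced arrays (grey), marker shape for replicate number and a line at each group mean. Every panel spans the same 3.2 log2 units, so the wide gap of Psmb10 (2.14) and of the probe set shared by Psme2 and Psme2b (1.61) can be set beside the narrow ones of Psmb8 (0.40) and Psmb5 (0.29).

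Psmb10 encodes MECL-1, the immunoproteasome subunit with trypsin-like cutting. It had by far the widest difference of the catalytic subunits, with signals of 6796, 8963 and 6798 in induced cells, against 2075, 1462 and 1546 in uninduced cells. The lowest induced array was more than 3 times the highest uninduced one. Psmb10 rose 4.42-fold, a log2 fold change of 2.14 ± 0.21 (SE of the limma fit, n = 3 arrays a group), and its mean signal was 7519 ± 1251 in induced and 1695 ± 333 in uninduced cells (SD, n = 3 each). Its log2 fold change stayed between 2.01 and 2.36 under every alternative run, but its limma call was kept under 9 of 16. The call was lost with the replicate number as a block, with a pseudocount of 1, and without any single array other than uninduced replicate 1.

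Psmb8 encodes LMP7, the immunoproteasome subunit with chymotrypsin-like cutting, and it differed little. Its brighter probe set gave signals of 14176, 18360 and 15316 in induced cells, against 12279, 11968 and 11785 in uninduced cells. The groups did not overlap, the uninduced arrays lay close together, and induced replicate 2 stood above the other induced arrays. The log2 fold change was 0.40 ± 0.16 (SE, n = 3 a group), or 1.32-fold. The dimmer probe set (of a class whose probes may match other transcripts) gave signals of 1074, 834 and 918 in induced cells, against 696, 684 and 653 in uninduced cells. It showed nearly the same difference, 0.46, again without overlap, but here induced replicate 1 was the highest array and induced replicate 2 the lowest of the induced ones.

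Psmb9 encodes LMP2, which replaces the caspase-like subunit. Its signals were 13259, 18795 and 15071 in induced cells, against 10249, 9501 and 9426 in uninduced cells. All induced arrays were above all uninduced ones, with induced replicate 2 again the highest, and the log2 fold change was 0.68 ± 0.18 (SE, n = 3 a group), or 1.60-fold. Psmb8 and Psmb9 thus stood far below Psmb10 in the size of their difference, although all 3 are induced together by interferon in textbook accounts. Signals of Psmb8 and Psmb9 in uninduced cells averaged 12011 ± 249 and 9726 ± 455 (SD, n = 3 each), so both genes were well detected without doxycycline.

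The constitutive subunits were also higher on average in induced cells. Psmb5, the chymotrypsin-like subunit, had signals of 6805, 9948 and 9104 in induced cells, against 6682, 7177 and 6971 in uninduced cells. Induced replicate 1 lay inside the uninduced range, and the log2 fold change of 0.29 ± 0.19 (SE, n = 3 a group) was the smallest of the members. Psmb6, the caspase-like subunit, had signals of 4862, 5206 and 4724 in induced cells, against 3682, 3126 and 3310 in uninduced cells. Its groups were apart on every array and each was tight, with a log2 fold change of 0.55 ± 0.15 (SE, n = 3 a group). Psmb7, the trypsin-like subunit, had signals of 8635, 9160 and 6921 in induced cells, against 7450, 4072 and 4219 in uninduced cells. Uninduced replicate 1 lay above the lowest induced array, so the groups overlapped. The log2 fold change of Psmb7 was 0.70 ± 0.28 (SE, n = 3 a group), and it was 0.98 without uninduced replicate 1.

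Each immunoproteasome subunit was then set against the partner whose place it takes, as the difference of their log2 fold changes. For Psmb10 over Psmb7 this was 1.45, a ratio of the fold changes of 2.73, and the log2 ratio of the pair, set to 0 at the uninduced mean, was 1.24, 1.55 and 1.56 on induced arrays, against -0.26, 0.11 and 0.14 on uninduced arrays. The ratio was thus apart on all arrays, and it kept a value of 1.32 to 1.55 under all alternatives that could give it. For Psmb9 over Psmb6 the difference was 0.13, with -0.08, 0.32 and 0.14 on induced arrays, against -0.05, 0.07 and -0.02 on uninduced arrays. For Psmb8 over Psmb5 it was 0.11, with 0.27, 0.09 and -0.04 on induced arrays, against 0.09, -0.05 and -0.03 on uninduced arrays. In both of these pairs the groups overlapped. The difference was below the SD of the ratio between induced arrays (0.20 and 0.15, n = 3 each) and above that between uninduced arrays (0.07 and 0.08). A shift of the immunoproteasome subunit relative to its constitutive partner was therefore seen on all arrays for the trypsin-like site only. No test was run on these ratios, and with 3 arrays a group a small shift at the other sites could be missed.

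**Figure D2:**
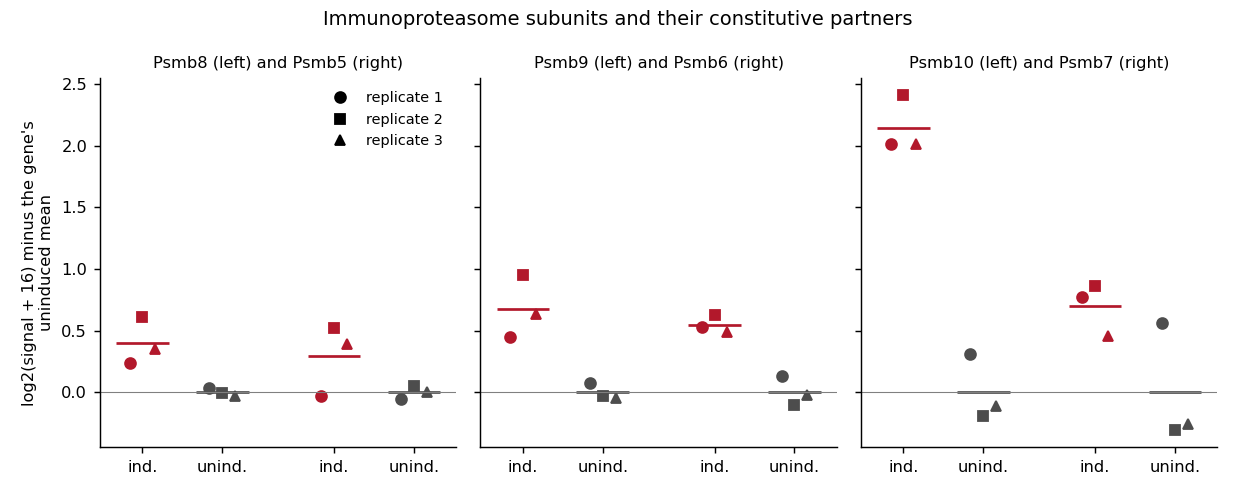
Level of each catalytic subunit on each array relative to that gene's own uninduced mean (y axis, log2 units), with induced arrays (ind., red) left of uninduced arrays (unind., grey), the immunoproteasome subunit on the left of each panel and its constitutive partner on the right. Lines are group means: Psmb10 stands 2.14 above its uninduced level beside 0.70 for Psmb7, while Psmb8 and Psmb5 (0.40 and 0.29) and Psmb9 and Psmb6 (0.68 and 0.55) differ little from each other.

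The PA28 genes differed in size. Psme1, the alpha subunit, had signals of 14216, 16176 and 14824 in induced cells, against 7838, 8389 and 9068 in uninduced cells. No induced array came near the uninduced ones, and both groups were tight. The log2 fold change of Psme1 was 0.84 ± 0.15 (SE, n = 3 a group), or 1.79-fold, it ranged from 0.79 to 0.90 under the alternatives, and it passed the limma threshold under 5 of 16 of them although not as reported. The probe set shared by Psme2, the beta subunit, and Psme2b gave signals of 7818, 11620 and 10229 in induced cells, against 3663, 2977 and 2944 in uninduced cells. This was the second-widest difference of the 12 probe sets, 1.61 on the log2 scale or 3.06-fold, and it stood between 1.49 and 1.77 when any single array was left out. RNA of Psme2 on chromosome 14 and of Psme2b on chromosome 11 cannot be told apart here.

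Psme3, the gamma subunit, had 3 probe sets. The brightest gave signals of 1711, 1651 and 1503 in induced cells, against 1410, 853 and 937 in uninduced cells. The groups were apart, with uninduced replicate 1 the closest to the induced arrays, and the log2 fold change was 0.63 ± 0.23 (SE, n = 3 a group). The next gave signals of 942, 654 and 738 in induced cells, against 763, 376 and 472 in uninduced cells, with overlap of the groups and a difference of 0.57. The dimmest had signals of 14.9 to 34.3 in induced and 18.8 to 31.3 in uninduced cells, below the median level of all probe sets, and its difference of -0.04 is one between values near background. Without uninduced replicate 1 the log2 fold change of Psme3 was 0.85.

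The rest of the proteasome was examined because a change of the members can be read only beside it. The 31 measured genes of the alpha ring, the other beta subunits and the 19S regulatory particle, which recognises ubiquitin chains and unfolds substrates, had log2 fold changes from -0.14 to 0.83 with a median of 0.47, and 28 were positive. In limma 0 of the 31 passed the threshold, and 15 had an unadjusted p under 0.05, all of them higher in induced cells. Over all genes 17.4% had an unadjusted p under 0.05, 7.14% higher and 10.3% lower. On 20 every induced array was above every uninduced array, and on 1, Psmb1, every induced array was below. These separations held for 10.7% and 13.4% of all genes. Psmb10 (2.14) lay above all 31 and Psme1 (0.84) just above the highest of them, whereas Psmb9 (0.68) lay above 25, Psmb7 above 25, Psme3 above 24, Psmb6 above 19, Psmb8 above 14 and Psmb5 above 11. Psmb8, Psmb9 and the constitutive catalytic subunits thus stood inside the range of these 31 subunits, which Psma6 and Psma5 set. These ranks and limits rest on each gene's probe set of highest mean. A further Psmd7 probe set gave 0.96, above Psme1, so the place of Psme1 depends on the choice of probe set. At the lower end a further Psmc6 probe set gave -0.48, below Psma6. The 31 include Psmb11, a tissue-specific catalytic subunit with levels below the background. Its value of 0.61 counts among the 28 positive, the 20 separated and the ranks given here.

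Within these lists the alpha ring (8 genes) had a median of 0.39, with Psma5 at 0.83 ± 0.16, Psma3 at 0.62 ± 0.19, Psma4 at 0.59 ± 0.19 and Psma2 at 0.45 ± 0.16 (SE, n = 3 a group). Psma6 stood at -0.14 ± 0.15. Other probe sets at or above the median level gave 0.60 for Psma5, 0.24 for Psma3 and -0.18 to 0.10 for Psma6. The other beta subunits (5 genes) had a median of 0.37, with Psmb3 at 0.51 ± 0.16, Psmb4 at 0.37 ± 0.18, Psmb2 at 0.33 ± 0.17 and Psmb1 at -0.12 ± 0.14. The 2 other Psmb1 probe sets at or above the median level gave 0.12 and 0.36, so the sign of Psmb1 depends on the probe set. For Psmb4 the other probe set gave 0.16. Psmb11, the thymus-specific catalytic subunit, had levels from 4.61 to 5.78 in induced and from 4.33 to 4.48 in uninduced cells, below the background level. The 19S list (18 measured genes) had a median of 0.50, with Psmd3, a scaffold subunit, at 0.76 ± 0.17, Psmd1 at 0.75 ± 0.15, Psmd13 at 0.74 ± 0.16 and Psmd6 at 0.66 ± 0.17. For Psmd13 the 3 other probe sets at or above the median level ranged from -0.18 to 0.49.

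Factors that build or switch the particle had lower medians, 0.19 for assembly factors and 0.03 for caps and regulators. Of 8 measured assembly factors 0 passed the threshold and 1 had an unadjusted p under 0.05 in limma, a smaller share than the 17.4% over all genes. That gene was Pomp, the maturation factor that guides beta subunits into new particles and is needed for immunoproteasome assembly, with levels of 13.31, 13.39 and 13.21 in induced cells, against 12.64, 12.53 and 12.56 in uninduced cells. Its log2 fold change was 0.73 ± 0.15 (SE, n = 3 a group, adjusted p of 0.116 in limma), beside 0.43 ± 0.20 for Psmg1, 0.39 ± 0.19 for Psmg2 and 0.30 ± 0.16 for Psmd9. Of 6 measured caps and regulators 0 passed and 3 had an unadjusted p under 0.05: the deubiquitinases Uchl5 at 0.64 ± 0.15 and Usp14 at 0.59 ± 0.18, and Nfe2l1 at -0.91 ± 0.14. The 3 other Usp14 probe sets at or above the median level gave only 0.09 to 0.22. Nfe2l1 encodes NRF1, the transcription factor that raises constitutive proteasome genes when proteasome activity is short. Its levels were 9.49, 9.52 and 9.40 in induced cells, against 10.44, 10.33 and 10.39 in uninduced cells, which was opposite in sign to most proteasome subunits, with an adjusted p of 0.0851 in limma. Psme4, an alternative cap known from testis and DNA repair, stood at -0.20 ± 0.16 and Psmf1, which encodes the proteasome inhibitor PI31, at 0.05 ± 0.16.

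**Figure D3:**
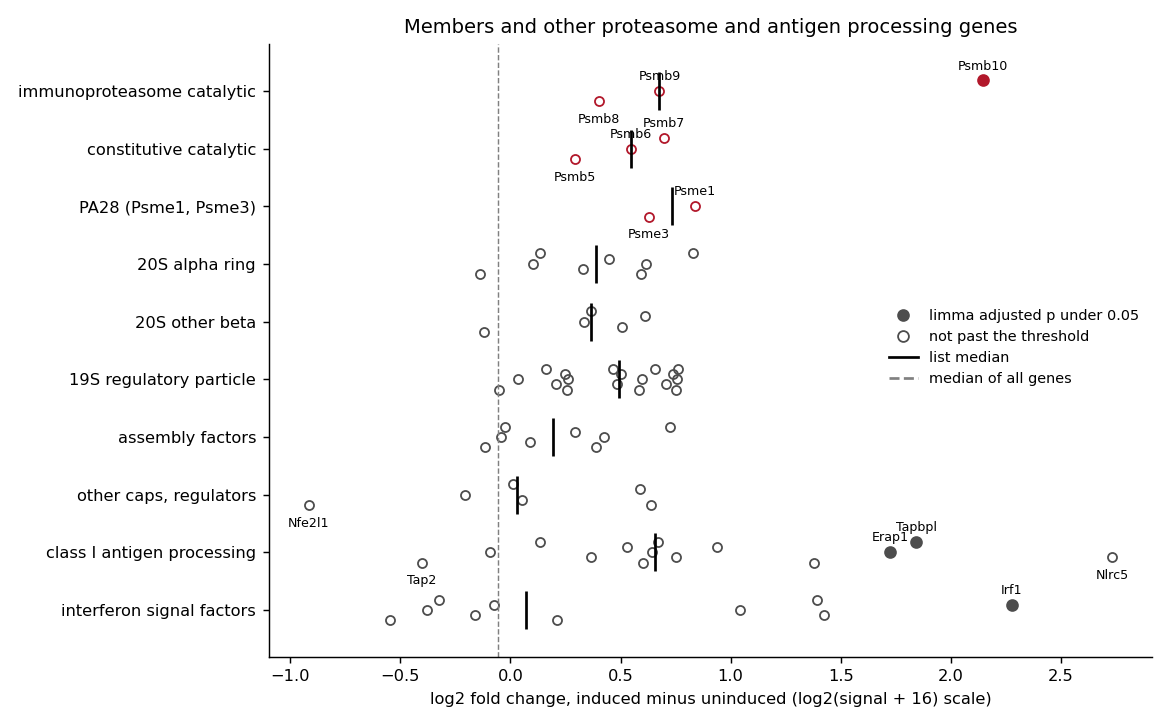
Log2 fold change (x axis, induced minus uninduced, log2(signal + 16) scale) of each measured gene of the members' classes (red) and of the other lists (grey), with filled points for genes past an adjusted p of 0.05 in limma, a black line at each list's median and a dashed line at the median of all genes (-0.06). The 31 other proteasome subunits lie between -0.14 and 0.83. Psmb10 stands to the right of them, as do Irf1, Tapbpl, Erap1 and the open point of Nlrc5 (2.73).

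Genes that act on the peptides after the proteasome gave some of the widest differences. Of 14 measured class I genes 2 passed the threshold, both higher, and 10 had an unadjusted p under 0.05, 9 higher and 1 lower (over all genes 7.14% were higher and 10.3% lower), around a median log2 fold change of 0.66. Tapbpl, a peptide editor of class I molecules, rose by 1.84 ± 0.18, and Erap1, the aminopeptidase that trims peptides in the endoplasmic reticulum, rose by 1.73 ± 0.17 (SE, n = 3 a group), each with an adjusted p of 0.0396 in limma. Tapbpl had levels of 9.17, 9.59 and 9.53 in induced cells, against 7.72, 7.44 and 7.61 in uninduced cells. Nlrc5, the transactivator of class I genes, which is also known to act on Psmb9 and Tap1, stood at 2.73 ± 0.49, with an adjusted p of 0.0977. Its levels were 11.00, 10.94 and 10.77 in induced cells, against 9.35, 7.68 and 7.49 in uninduced cells, so that uninduced replicate 1 was the highest uninduced array by a wide margin. Thop1, a peptidase that destroys free peptides, stood at 0.94 ± 0.17, B2m at 0.64 ± 0.17 and H2-D1 at 0.67 ± 0.18, although the 7 other H2-D1 probe sets at or above the median level ranged from -0.12 to 0.85 and class I genes share probes.

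The 2 peptide transporter genes, which lie beside Psmb8 and Psmb9, did not share a direction. The order on chromosome 17 is Psmb9, Tap1, Psmb8 and Tap2, all within 20 kb of each other's ends in the RefSeq table. Tap1 had levels of 11.54, 11.61 and 11.25 in induced cells, against 11.30, 10.74 and 10.77 in uninduced cells, with overlap of the groups and a log2 fold change of 0.53 ± 0.22 (SE, n = 3 a group). A further Tap1 probe set gave 0.08. Tap2 had levels of 12.76, 12.78 and 12.49 in induced cells, against 13.10, 13.08 and 13.05 in uninduced cells, and stood at -0.40 ± 0.16, below on every array but not past the threshold (adjusted p of 0.267 in limma). Within 20 kb of both Psme1 and Psme2 on chromosome 14 lie Dcaf11 (log2 fold change of 0.25), Rnf31, a subunit of the linear ubiquitin ligase (0.47), and Emc9 (0.69) and Fitm1 (-0.26), whose mean levels of 5.86 and 5.33 were near background. Irf9 (1.04) lies within 20 kb of Psme2. Beside Psmb10 on chromosome 8, Slc12a4 stood at -0.61 and Pskh1 at -0.30, and Ctrl at 1.31 (every induced above every uninduced array) and Lcat at -0.05 had mean levels of 5.67 and 5.53, near background.

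Of the 10 measured interferon signal factors 1 passed the threshold. Irf1, a transcription factor that is known to bind the promoters of Psmb9 and Tap1, rose by 2.28 ± 0.22 (SE, n = 3 a group, adjusted p of 0.0396 in limma), with levels of 11.95, 11.97 and 11.49 in induced cells, against 9.84, 9.31 and 9.43 in uninduced cells. Stat2 stood at 1.42 ± 0.24, the feedback inhibitor Socs1 at 1.39 ± 0.21 and Irf9 at 1.04 ± 0.18, each at an unadjusted p under 0.05 and with all induced above all uninduced arrays. Irf2 stood at -0.38, and Ifngr1 and Ifngr2 at 0.21 and -0.08. The call counts of these lists depend on single arrays: 3 genes of the 69 measured in all 7 lists passed as reported, 19 passed without uninduced replicate 1, and 0 passed without any other single array.

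The likeness of profiles was measured as the root mean square difference over the 6 arrays, after each gene was centred on its own mean, among 10685 genes at or above the median level. Nearest to Psmb10 were Parp14 (0.09), Irf1 (0.16) and Parp9 (0.17). Nearest to the probe set shared by Psme2 and Psme2b were Erap1 (0.11), Tapbpl (0.14) and Epsti1 (0.15). Psmb9 had Nt5c2 (0.04), Lgals3bp (0.05) and the alpha ring gene Psma4 (0.06) as its nearest, and Psme1 had Dnaja1 (0.04), Psmd13 (0.06) and Tubb4b (0.07). The genes nearest to Psmb8 were Hars2, Aacs and Med24, with differences of 0.02 to 0.03. Among the constitutive subunits the nearest were Hadha, Map2k2 and Mbd2 for Psmb5, Atf7ip, Mrpl22 and Atp5g3 for Psmb6, and Ppat, Dhrs11 and Hnrnpdl for Psmb7. Psme3 was nearest to Ranbp1, Cyc1 and Pyurf. Small differences of this kind are easier to reach for genes that change little, so the values are not to be ranked between members.

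For the 8 members with a probe set of their own, the log2 fold change was positive under the 15 alternatives that gave one value a gene, as the plot of fold changes under other processing shows. With every probe set taken on its own, the dimmest Psme3 probe set stood at -0.04. Psme1 and Psmb6 varied least, from 0.79 to 0.90 and from 0.50 to 0.62. Psmb7 (0.54 to 0.98) and Psme3 (0.38 to 0.85) varied most, each with its highest value without uninduced replicate 1.

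**Figure D4:**
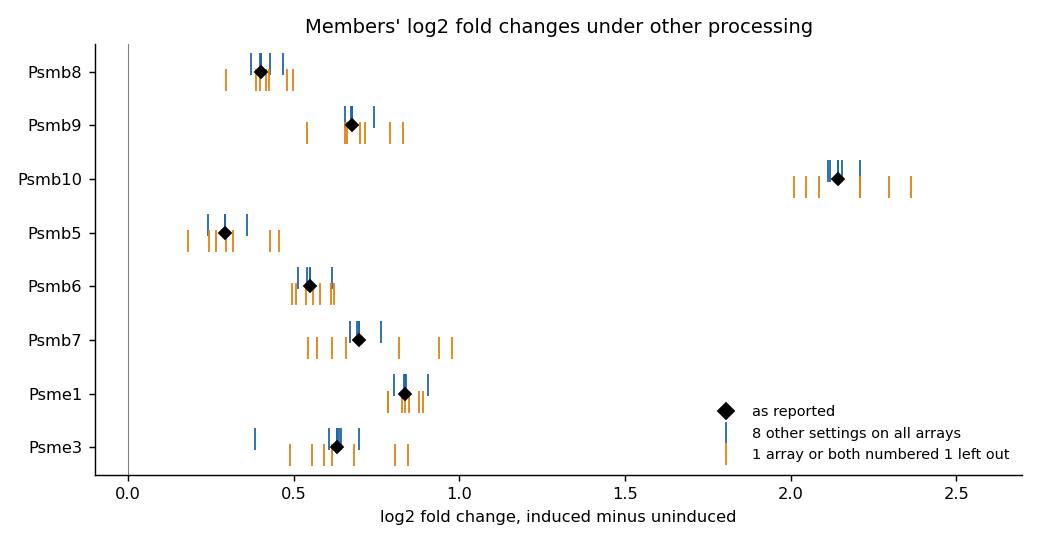
Log2 fold change (x axis, induced minus uninduced) of the 8 members with a probe set of their own, as reported (black diamonds), under 8 other settings on all arrays (blue ticks) and with 1 array or both arrays numbered 1 left out (orange ticks). All values lie above 0, Psmb10 between 2.01 and 2.36 and Psmb5, the lowest, between 0.18 and 0.45.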

How the data were processed

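RNA of 6 Ba/F3 cultures was hybridised to 6 Affymetrix arrays. The authors deposited linear signal intensities, made with Affymetrix Expression Console 1.4.1 per the submitters' processing notes. The values show that each array was scaled to a trimmed mean of 500 (2% left out at each end), so they are relative to the total signal of an array. The sources used here do not name the summary method. The cultures are described as triplicates and nothing says they were separate experiments, so p-values reflect the spread of these cultures alone, and 3 arrays a group limit the precision.

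From these intensities log2(signal + 16) was taken. Of 45037 probe sets left after 64 controls, 34945 had exactly 1 symbol, 932 several and 9160 none. For each of 18193 genes the probe set of highest mean was tested with limma 3.58.1 in R 4.3.3 (lmFit, eBayes). Tests were two-sided with 4 residual degrees of freedom, and p-values were adjusted by Benjamini-Hochberg across genes, at a threshold of 0.05. Genes were named by a rule: all probe sets of the members, list genes past the threshold or up to 4 with the smallest p, the 3 nearest profiles of each member, and Jak2 and Spag9. Genome neighbours, promoter patterns and list genes named beyond this rule were chosen after their values were seen. The members and lists were chosen with earlier results of these data known. On data simulated for this comparison (18193 genes, 200 changed, 5 runs) 30.8% of genes changed 2-fold were called, 78.4% of those changed 4-fold and 91.6% of those changed 8-fold, and 4.43% of calls were false. Alternatives tried were the replicate number as a block, centring on the array median, quantile normalization, a filter at the median level, averaged probe sets, every probe set on its own, a trended and robust variance, pseudocounts of 1 and 64, and leaving out each array or both arrays numbered 1. Figures were drawn with matplotlib 3.10.9.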

Additional observations from a re-analysis of the deposited data

How the results depend on the processing

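All 120 log2 fold changes of the 8 members under the 15 alternatives that gave one kept their direction and moved by less than 1 SD between replicates. Much of this was fixed in advance. The replicate block, the filter and the trended variance leave a member's fold change as it is. Leaving out 1 of 3 arrays cannot move it by 1 SD, so for these settings the SD count shows nothing. The partner differences also kept their sign: 1.32 to 1.55 for Psmb10 over Psmb7, 0.03 to 0.23 for Psmb9 over Psmb6 and 0.03 to 0.18 for Psmb8 over Psmb5. Counts of calls did not hold. As reported 21 genes were higher and 13 lower, 1 of them a member, Psmb10, and 3 in the other lists. With the replicate number as a block there were 0 higher, 0 lower, 0 members and 0 list genes (smallest adjusted p of 0.198 in limma, 3269 genes at an unadjusted p under 0.05). The numbers share no stated batch, and deviations of same-numbered arrays correlated at 0.17, 0.08 and 0.08. Arrays numbered 1 correlated at -0.12 to -0.10 with those numbered 2 or 3 of the other group. Between numbers 2 and 3 the values were 0.05 and 0.06. What the arrays numbered 1 share was not tested. With a pseudocount of 1 the 4 counts were 0, 0, 0 and 0 (limma, 2807 unadjusted). They were 144, 198, 2 and 13 with the filter at the median level, 237, 313, 3 and 18 with trended and robust variance, 122, 133, 2 and 13 with a pseudocount of 64, and 524, 953, 2 and 20 without both arrays numbered 1. Median centring gave 6 lower genes, with 80% of calls higher in place of 61.8%, and averaging a gene's probe sets gave 21 lower genes. The share of higher calls was 42.1% with the filter at the median level. Leaving out 1 array gave from 0 to 586 higher genes, 0 to 867 lower genes, 0 to 4 members and 0 to 19 list genes. Without any array other than uninduced replicate 1, limma called 0 members, while 2006 to 3091 genes had an unadjusted p under 0.05. The highest counts came without uninduced replicate 1, where Psmb7, Psme1 and Psme3 passed besides Psmb10. The filter tests fewer genes. For the other settings the cause was not tested. With 3 arrays a group a 2-fold change is often missed, so a member that did not pass is not shown to be unchanged.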
